A study of Mus musculus with 13 samples.

Results

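The integrated stress response genes described here were 10 genes of its ATF4 branch, chosen by name: Eif2ak3, Atf4, Ddit3, Ppp1r15a, Trib3, Asns, Chac1, Sesn2, Fgf21 and Gdf15. All 10 were found among the 53392 genes of the count table, and 9 of them were among the 14317 genes that passed the count filter. Asns did not pass, and its counts are given apart. Ddit3 has a second identifier, ENSMUSG00000116429.1, with 0 to 2 counts per mouse, so its values are those of ENSMUSG00000025408.15.

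In the integrated stress response, kinases that each sense a different stress phosphorylate the translation factor eIF2alpha, which lowers protein synthesis in general while translation of the Atf4 mRNA increases. ATF4 then activates genes of amino acid synthesis and transport, of redox balance and of feedback, together with the transcription factor CHOP, the product of Ddit3. In liver the response is known from stress of the endoplasmic reticulum or mitochondria and from shortage of amino acids, and the liver secretes its products FGF21 and GDF15, which act on metabolism and appetite.

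RNA was sequenced from whole liver of 13 female mice, 8 to 14 weeks of age, after 4 weeks of a liquid Lieber-DeCarli diet in which 28% of calories were ethanol. The genotypes differed in TRE-ASAH1, an acid ceramidase transgene that hepatocytes express when given doxycycline (Dox). It was present in ASAH+ mice and absent from their ASAH− littermates. Albumin-Cre and Rosa26-loxP-stop-loxP-rtTA were homozygous in both genotypes. The groups were 4 ASAH− mice given Dox at 200 mg/l (Etoh-Dox), 5 ASAH+ mice on the same diet with Dox (Etoh-Dox), and 4 ASAH+ mice without Dox (Etoh). The series asked which of the groups without the expressed transgene, the one that differs in genotype or the one that differs in diet, makes the better control, and no mouse was without ethanol.
For the ASAH+ mice, the sample titles name the opposite Dox treatment from the descriptions and induction labels, and the latter were used. The design text counts 4 mice in a group, and all 13 deposited mice were used. Total counts were 22000529 to 27844993 in the ASAH− Etoh-Dox mice, 23226459 to 35358711 in the ASAH+ Etoh-Dox mice, and 17819486 to 24454043 in the ASAH+ Etoh mice.

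Levels are given as CPM, counts scaled to library totals adjusted by the TMM factors of edgeR, always in the order of replicates within a group. Asah1 (acid ceramidase) served as the check of the groups and measured 48.7, 40.01, 53.7 and 54.95 CPM in the ASAH− Etoh-Dox mice, 10306, 9660.5, 15122, 12715 and 15923 CPM in the ASAH+ Etoh-Dox mice, and 46.7, 44.2, 46.7 and 48.2 CPM in the ASAH+ Etoh mice. All 5 ASAH+ Etoh-Dox mice were far above all other mice, as the descriptions give. Its log2 fold change was 8.01 (SE 0.20) against ASAH− Etoh-Dox mice and 8.10 (SE 0.20) against ASAH+ Etoh mice, with adjusted p of 1.24e-11 and 1.13e-11 by the quasi-likelihood test of edgeR, Benjamini-Hochberg adjusted. Alb, the albumin gene of hepatocytes, measured 64670.3 to 110655 CPM over the 13 mice, as the liver label requires. In bulk RNA, fewer cells of a type and less RNA per cell cannot be told apart. The reads are PCR products without molecular identifiers, so intervals drawn from counts cover counting error only.

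ATF4 and its partners bind composite C/EBP-ATF elements in many of their targets, so the promoters of the 10 genes were searched for motifs of the pathway. The windows were RefSeq sequences of GRCm38.p6, from 250 bases before to 50 after each gene's start, and all 10 genes had one. The letters TGATGNAA of a C/EBP-ATF element, on either strand, were found in 4 of the 10 genes (Chac1, Fgf21, Asns and Trib3) and in 1219 of all 27025 genes with a window (4.51%; 1304 of 32851 windows, 3.97%). The cAMP response element TGACGTCA was found in Ppp1r15a alone among the 10, and in 549 of all genes (2.03%; 1.79% of windows). The endoplasmic reticulum stress element, CCAAT and CCACG with 9 bases between them, was in 37 genes (0.137%; 0.119% of windows) and in 0 of the 10. Of 50 other integrated stress response genes with a window, 15 (30%) held TGATGNAA and 0 held either other motif. The matches are shown because these genes are the pathway's known targets, with the motif in capitals, 5′ to 3′ on the gene's own strand. The Asns match, before the RefSeq start, lies within the GENCODE gene, and the Trib3 match, after the RefSeq start, lies outside the GENCODE gene, and both are shown with short flanks. Each is a match of letters and no evidence that a factor was bound.
Chac1, chr2:119351019-119351086, plus strand, bases −193 to −186 from the start: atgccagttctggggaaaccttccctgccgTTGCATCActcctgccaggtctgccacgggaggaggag
Fgf21, chr7:45615592-45615659, minus strand, bases −139 to −132: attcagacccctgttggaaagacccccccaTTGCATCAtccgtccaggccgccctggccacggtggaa
Asns, chr6:7693217-7693240, minus strand, bases −23 to −16: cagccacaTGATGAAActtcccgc
Trib3, chr2:152344031-152344054, minus strand, bases 15 to 22 after the start: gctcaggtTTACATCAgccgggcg
Ppp1r15a, chr7:45526269-45526310, minus strand, bases −12 to −5: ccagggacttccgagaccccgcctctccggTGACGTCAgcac

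Eif2ak3 (ENSMUSG00000031668.14, chromosome 6 from 70844515 to 70905245, plus strand) encodes PERK, the eIF2alpha kinase of the endoplasmic reticulum. It measured 17.5, 11.2, 15.5 and 10.8 CPM in the ASAH− Etoh-Dox mice, 17.5, 13.5, 13.9, 14.7 and 15.1 CPM in the ASAH+ Etoh-Dox mice, and 15.6, 11.8, 12.1 and 15.8 CPM in the ASAH+ Etoh mice. The groups overlapped, and each held mice under 14 and mice above 15 CPM. Coordinates are those of GENCODE M21 on GRCm38. Its exons share 485 bases with Gm43292 on the opposite strand, from which the stranded library separates reads.

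Atf4 (ENSMUSG00000042406.8, chromosome 15 from 80255184 to 80257541, plus strand) encodes the transcription factor at the centre of the branch. Its mRNA measured 61.2, 57.2, 50.6 and 51.2 CPM in the ASAH− Etoh-Dox mice, 70.98, 48.7, 45.6, 54.1 and 51.7 CPM in the ASAH+ Etoh-Dox mice, and 50.8, 64.98, 54.2 and 65.6 CPM in the ASAH+ Etoh mice. The single highest mouse was ASAH+ Etoh-Dox replicate 1, and the other 4 mice of that group lay within or below the range of the other groups. Ddit3 (ENSMUSG00000025408.15, chromosome 10 from 127290774 to 127296288, plus strand) encodes CHOP, which ATF4 activates. It measured 3.60, 2.66, 3.75 and 1.68 CPM in the ASAH− Etoh-Dox mice, 3.73, 2.38, 3.43, 5.25 and 3.86 CPM in the ASAH+ Etoh-Dox mice, and 2.39, 2.56, 2.69 and 5.84 CPM in the ASAH+ Etoh mice. ASAH+ Etoh replicate 4 was the highest of the 13 mice and ASAH− Etoh-Dox replicate 4 the lowest, and the groups overlapped.

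The feedback genes are Ppp1r15a, whose product GADD34 directs the dephosphorylation of eIF2alpha, and Trib3, whose product is a pseudokinase that binds ATF4 and CHOP. Ppp1r15a (ENSMUSG00000040435.12, chromosome 7 from 45522916 to 45526268, minus strand) ranged from 6.25 to 11.2 CPM over the 13 mice, and both the lowest and the highest mouse were ASAH+ Etoh-Dox mice. Trib3 (ENSMUSG00000032715.9, chromosome 2 from 152337422 to 152344032, minus strand) measured 10.9, 14.3, 12.3 and 6.68 CPM in the ASAH− Etoh-Dox mice, 10.4, 11.4, 7.69, 16.9 and 23.02 CPM in the ASAH+ Etoh-Dox mice, and 9.07, 11.02, 12.9 and 5.37 CPM in the ASAH+ Etoh mice. ASAH+ Etoh-Dox replicates 4 and 5 were the 2 highest mice, whereas the other 3 of that group lay within the range of the ASAH− mice.

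Of the genes of amino acid and redox balance, Asns (asparagine synthetase; ENSMUSG00000029752.12, chromosome 6 from 7675169 to 7693254, minus strand) was close to the limit of counting. It had 3, 6, 19 and 4 counts in the ASAH− Etoh-Dox mice, 5, 24, 14, 4 and 7 counts in the ASAH+ Etoh-Dox mice, and 2, 2, 1 and 2 counts in the ASAH+ Etoh mice. In levels these were 0.137, 0.231, 0.775 and 0.143 CPM in the ASAH− Etoh-Dox mice, 0.138, 0.864, 0.506, 0.160 and 0.303 CPM in the ASAH+ Etoh-Dox mice, and 0.0921, 0.0813, 0.0464 and 0.116 CPM in the ASAH+ Etoh mice. Each mouse given Dox was above each mouse without Dox, whatever its genotype, and the 3 highest were ASAH− replicate 3 and ASAH+ Etoh-Dox replicates 2 and 3. Chac1 (ENSMUSG00000027313.3, chromosome 2 from 119351229 to 119354381, plus strand), whose enzyme degrades glutathione, ranged from 0.737 to 5.15 CPM, with ASAH+ Etoh replicate 1 the lowest. Sesn2 (ENSMUSG00000028893.8, chromosome 4 from 132492032 to 132510501, minus strand), a leucine sensor that restrains mTORC1, ranged from 5.87 to 10.6 CPM. Chac1 and Sesn2 overlapped between all 3 groups.

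Fgf21 (ENSMUSG00000030827.5, chromosome 7 from 45613886 to 45615490, minus strand) encodes a hormone of the liver. It measured 3.88, 2.43, 6.65 and 3.61 CPM in the ASAH− Etoh-Dox mice, 2.93, 1.76, 4.80, 2.48 and 1.91 CPM in the ASAH+ Etoh-Dox mice, and 2.49, 2.36, 0.603 and 3.18 CPM in the ASAH+ Etoh mice. The highest mouse was ASAH− Etoh-Dox replicate 3 and the lowest ASAH+ Etoh replicate 3. Gdf15 (ENSMUSG00000038508.7, chromosome 8 from 70629393 to 70632456, minus strand) encodes a secreted factor that acts on appetite through the hindbrain. It measured 4.97, 2.12, 5.79 and 0.393 CPM in the ASAH− Etoh-Dox mice, 6.80, 0.612, 1.30, 4.77 and 2.25 CPM in the ASAH+ Etoh-Dox mice, and 2.35, 0.569, 1.25 and 3.35 CPM in the ASAH+ Etoh mice. All 3 groups held mice under 1 CPM and mice above 3 CPM.

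**Figure D1:**
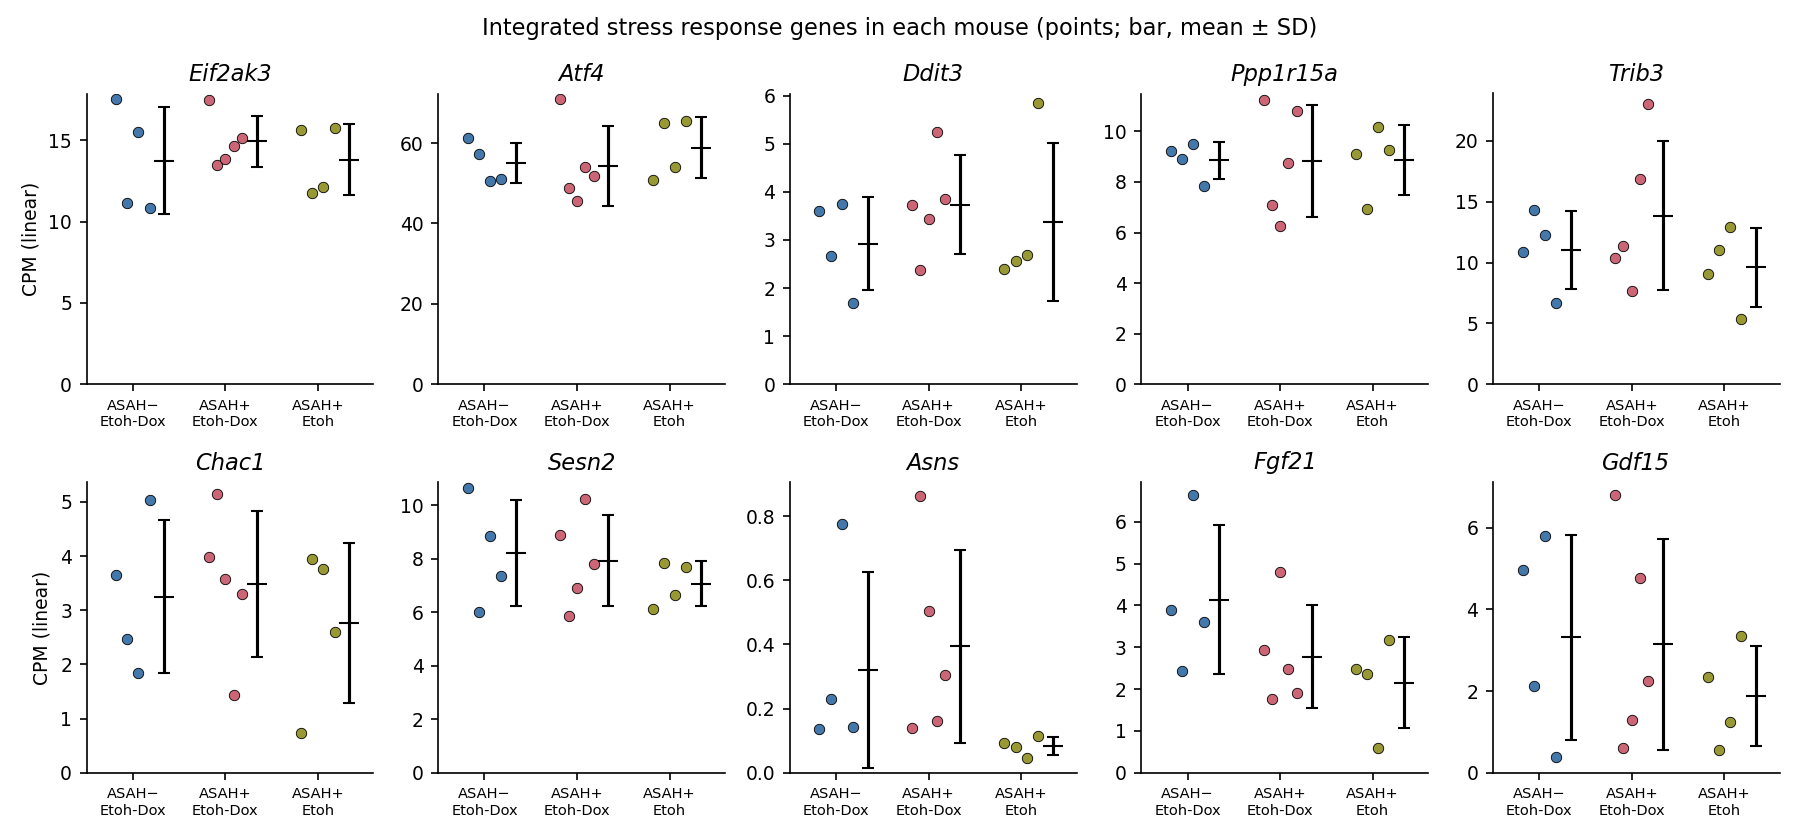
Levels of the 10 genes in each mouse (points, linear CPM) by group, with the mean and SD of 4 ASAH− Etoh-Dox, 5 ASAH+ Etoh-Dox and 4 ASAH+ Etoh mice. The groups overlap for each gene except Asns, for which the 4 ASAH+ Etoh mice lie below all 9 others.

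Per kilobase of merged exon, mean CPM over the 13 mice was highest for Atf4, at 23.7 ± 3.22 (SD), and lowest for Asns, at 0.101 ± 0.0984. Trib3 followed Atf4 at 5.50 ± 2.17 CPM per kilobase, and Atf4 was above Trib3 in 13 of 13 mice. Fgf21 (3.16 ± 1.59), Ppp1r15a (3.01 ± 0.508), Eif2ak3 (2.36 ± 0.373), Sesn2 (2.23 ± 0.441), Ddit3 (1.97 ± 0.687), Chac1 (1.95 ± 0.806) and Gdf15 (1.52 ± 1.16) came next, in CPM per kilobase. Gdf15 was above Asns in 13 of 13 mice and Ppp1r15a above Eif2ak3 in 12 of 13, whereas the other neighbours in this order were above the next in 6 to 9 mice. With the mean length of annotated transcripts instead, Atf4 and Trib3 were again first and Asns last, while Eif2ak3 moved from rank 5 to rank 3 and Fgf21 from 3 to 6.

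The 9 genes that passed the filter differed in how much mice of one group varied. The pooled SD of log2 CPM within groups was 1.37 for Gdf15, larger than that of 98.9% of the genes tested. It was 0.80 for Chac1 (larger than 96.3%), 0.73 for Fgf21 (95.1%), 0.55 for Trib3 (89.0%) and 0.50 for Ddit3 (85.5%). Sesn2 (0.29), Ppp1r15a (0.27), Eif2ak3 (0.24) and Atf4 (0.20) were near the median of all genes tested, 0.24. The 5 targets that varied most had fewer counts than Atf4, with a mean of 72.1 counts per mouse for Gdf15 and 1402 for Atf4. Trib3, however, had a mean of 291.8 counts, more than Sesn2 (194.2) and Ppp1r15a (221.2), which varied less. The part of counting error in this order was not tested.

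The genotype comparison set ASAH+ against ASAH− mice, both on Etoh-Dox, which sets the genotype apart from Dox. Expression of the transgene was accompanied by no called change among the 9 tested genes of the branch. Atf4 averaged 54.2 ± 9.91 CPM (SD, n = 5) in ASAH+ and 55.03 ± 5.10 CPM (SD, n = 4) in ASAH− mice. Trib3 averaged 13.9 ± 6.11 CPM (SD, n = 5) and 11.04 ± 3.22 CPM (SD, n = 4), and Fgf21 2.78 ± 1.23 and 4.14 ± 1.79 CPM.
Of the 9 genes, 0 passed an adjusted p of 0.1 by edgeR, beside 2 of all 14317 genes (0.0140%; Asah1 and Sod1). DESeq2 and limma-voom also called 0 of them. At an unadjusted p under 0.05 edgeR had 0 of the 9, beside 2.86% of all genes, and 0 of the 10 genes had groups without overlap, beside 0.887%. The log2 fold changes were positive for 4 genes and negative for 5, with a median of −0.0044 beside −0.0023 over all genes tested. The largest were −0.57 for Fgf21 (SE 0.41, 95% interval −1.44 to 0.31), 0.35 for Ddit3 (SE 0.31, −0.31 to 1.02) and 0.33 for Trib3 (SE 0.33, −0.39 to 1.04). With 1 mouse left out, Fgf21 was −0.85 (without ASAH+ replicate 3) to −0.24 (without ASAH− replicate 3), Ddit3 0.16 (without ASAH− replicate 4) to 0.50 (without ASAH− replicate 3), and Trib3 0.076 (without ASAH+ replicate 5) to 0.49 (without ASAH+ replicate 3). Every adjusted p of the 9 genes was 0.9996 by the quasi-likelihood test of edgeR, Benjamini-Hochberg adjusted. By exact two-sided permutation of the mice, the smallest p of the 10 genes was 0.206, for Fgf21, where 0.0159 is the smallest that 5 against 4 mice can give. Fgf21 was lower in the ASAH+ mouse in 15 of 20 pairs of mice.
The intervals set what could have been missed. For Atf4 the 95% interval was 0.817- to 1.19-fold, and for Eif2ak3 0.868- to 1.36-fold. The intervals of 4 of the 9 genes lay wholly within a 2-fold change in either direction. That of Gdf15 ran from 0.305- to 3.04-fold, so changes within that range were not resolved with these mice.

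The induction comparison set ASAH+ mice with Dox against ASAH+ mice without it, in which Dox and the transgene differ together. Asns had 4 to 24 counts in the 5 mice with Dox and 1 or 2 counts in the 4 mice without. Over the pooled counts, 54 against 7, the ratio of levels was 4.70 (95% exact interval 2.13 to 12.3), and with 1 mouse left out it was 3.26 (without ASAH+ Etoh-Dox replicate 2) to 5.76. The exact interval covers counting error only and leaves out the spread between mice, unlike the intervals of the fitted fold changes. The other 9 genes overlapped between the groups. Trib3 averaged 13.9 ± 6.11 CPM (SD, n = 5) with Dox and 9.60 ± 3.23 CPM (SD, n = 4) without.
By exact two-sided permutation, Asns had p = 0.0159, the smallest possible here, with a difference in mean log2 CPM of 1.33, and it was higher with Dox in 20 of 20 pairs of mice. This p is the smallest of the 10 genes and was not adjusted over them. Asns was the only 1 of the 10 genes without overlap, beside 2.58% of all genes tested. Asns did not pass the count filter and is not among those genes, so this is no share for genes of so few counts. Without a count filter, edgeR gave Asns a log2 fold change of 2.19 (SE 0.70) with an adjusted p of 0.796, and DESeq2's own filter on low counts removed it. Among the 9 tested genes edgeR called 0, beside 2 genes in all (0.0140%, Asah1 and Sod1), and DESeq2 and limma-voom called 0. After its own filter, DESeq2 gave an adjusted p to 1982 genes on all 13 mice and to 13584 on the compared groups. Genes without one could not be called, so the 0 of DESeq2 on all 13 mice decides little here. At an unadjusted p under 0.05, edgeR had 0 of the 9, beside 7.29% of all genes, and limma-voom and DESeq2 had 0. Asns, outside these 9, was under 0.05 both by edgeR without a count filter and by DESeq2.
The log2 fold changes were positive for 7 genes and negative for 2, with a median of 0.17 beside 0.013 over all genes. Trib3 had 0.52 (SE 0.33, 95% interval −0.21 to 1.25; adjusted p = 0.765 by the quasi-likelihood test of edgeR, Benjamini-Hochberg adjusted) and Gdf15 0.78 (SE 0.80, −0.97 to 2.53). Atf4 had −0.12 (SE 0.13, −0.39 to 0.15). With 1 mouse left out, Atf4 was −0.25 without ASAH+ Etoh-Dox replicate 1, where its unadjusted edgeR p was under 0.05 and its adjusted p 0.618 by the quasi-likelihood test of edgeR, Benjamini-Hochberg adjusted, to −0.068 without ASAH+ Etoh replicate 2. Trib3 was then 0.25 (without ASAH+ Etoh-Dox replicate 5) to 0.69 (without ASAH+ Etoh replicate 3), and Gdf15 0.26 (without ASAH+ Etoh-Dox replicate 1) to 1.19 (without ASAH+ Etoh replicate 4). The intervals of 5 of the 9 genes lay within a 2-fold change either way.

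The control comparison set ASAH− mice with Dox against ASAH+ mice without it, in which both groups are without an expressed transgene while genotype and Dox differ together. Asns and Fgf21 were the genes with the clearest separation. Asns had 3 to 19 counts in the ASAH− Etoh-Dox mice, and 32 against 7 pooled counts gave a ratio of levels of 3.88 (95% exact interval 1.68 to 10.4). This interval also leaves out the spread between mice. Of the 32 counts, 19 came from ASAH− replicate 3, without which the ratio was 2.08 (0.773 to 6.17), an interval that includes 1. Fgf21 averaged 4.14 ± 1.79 CPM (SD, n = 4) in ASAH− Etoh-Dox mice and 2.16 ± 1.10 CPM (SD, n = 4) in ASAH+ Etoh mice, a log2 fold change of 0.95 (SE 0.44, 95% interval −0.011 to 1.90).
Fgf21 was higher in the ASAH− mouse in 14 of 16 pairs, with p = 0.0857 by exact two-sided permutation and an adjusted p of 0.552 by the quasi-likelihood test of edgeR, Benjamini-Hochberg adjusted. Asns was higher in 16 of 16 pairs, with an exact permutation p of 0.0286, the smallest that 4 against 4 mice can give, and a difference in mean log2 CPM of 1.06. Neither permutation p was adjusted over the 10 genes. Asns was the only 1 of the 10 genes without overlap, beside 5.50% of all genes tested, among which it is again not counted. Without a count filter edgeR gave it a log2 fold change of 1.88 (SE 0.74) and an adjusted p of 0.763.
Of the 9 tested genes edgeR called 0, beside 2 genes in all (0.0140%, mt-Co2 and mt-Co3), and DESeq2 and limma-voom called 0. DESeq2 gave an adjusted p to 8625 genes on all 13 mice and to 10699 on the compared groups. At an unadjusted p under 0.05, edgeR had 0 of the 9, beside 9.18% of all genes, and limma-voom and DESeq2 each had 1 (Fgf21). Asns, outside these 9, was under 0.05 both by edgeR without a count filter and by DESeq2. The log2 fold changes were positive for 6 genes and negative for 3, with a median of 0.19 beside 0.016 over all genes. The intervals of 6 of the 9 genes lay within a 2-fold change either way, and Gdf15, at 0.83 (SE 0.84), had the widest, −1.003 to 2.67. With 1 mouse left out, Fgf21 was 0.61 (without ASAH+ Etoh replicate 3) to 1.16 (without ASAH+ Etoh replicate 4), with an unadjusted edgeR p under 0.05 without ASAH− replicate 2 and without ASAH+ Etoh replicate 4. It was also under 0.05 with all mice when only genes of at least 10 counts in every mouse were fitted, at a Benjamini-Hochberg adjusted p of 0.508 by edgeR. Gdf15 was then 0.41 (without ASAH− replicate 3) to 1.23 (without ASAH+ Etoh replicate 4).
Between the 2 groups given Dox, Asns had 54 and 32 counts, a ratio of 1.21 (95% exact interval 0.769 to 1.94) with an exact permutation p of 0.651. That ratio was 2.26 (1.22 to 4.51) without ASAH− replicate 3 and 0.841 (0.494 to 1.43) without ASAH+ Etoh-Dox replicate 2. Each of these intervals leaves out the spread between mice. The 3 comparisons share their groups, so the separation of Asns in the induction comparison and the control comparison rests on the same 4 ASAH+ Etoh mice and their 7 counts.

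**Figure D2:**
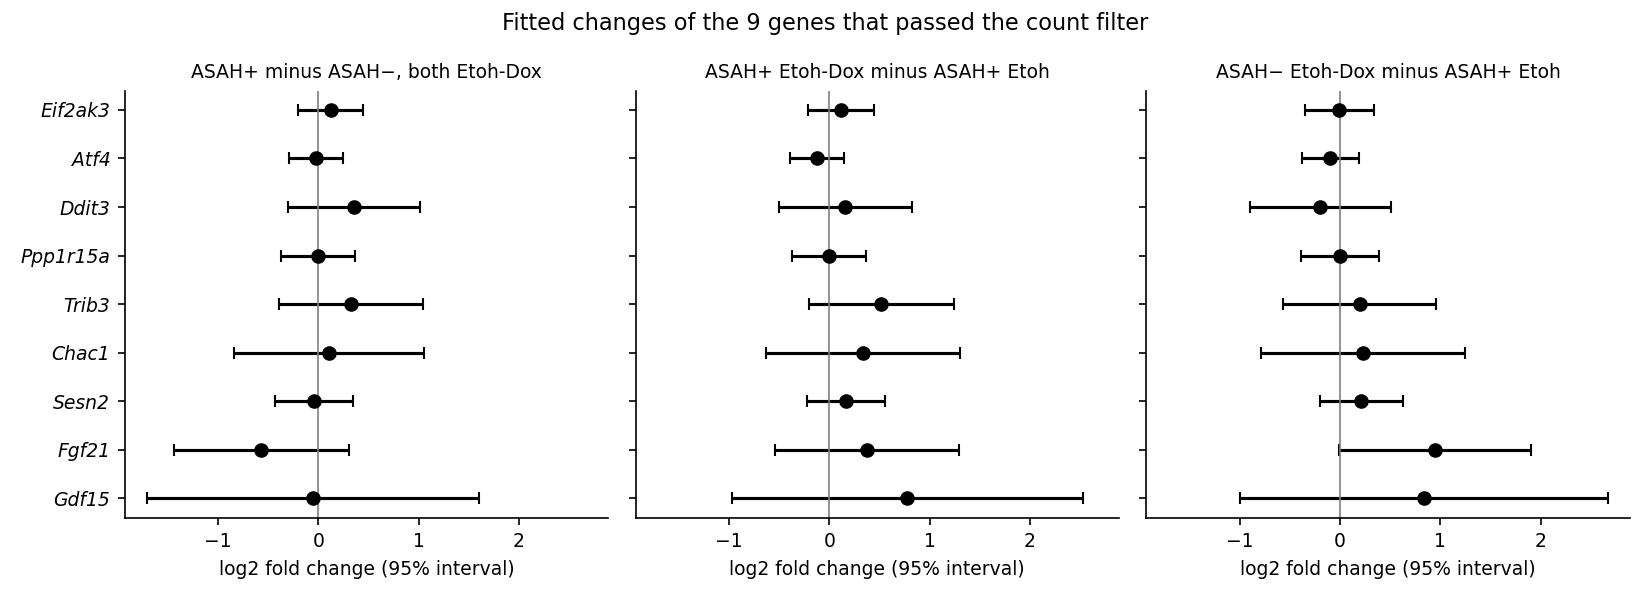
Log2 fold changes of the 9 genes that passed the count filter with 95% intervals from edgeR, in the 3 comparisons. Each interval includes 0, and those of Gdf15 are the widest.

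Erythroid genes, as a sum, were also lowest in the mice without Dox. Of 6 erythroid genes, 5 were tested, and all 5 had an unadjusted edgeR p under 0.05 and a positive log2 fold change in the induction comparison (median 1.85) and the control comparison (median 2.16), with 0 called by edgeR or limma-voom. Over all genes tested, 7.29% and 9.18% had such a p in these comparisons. DESeq2 on all 13 mice called 3 of them in the induction comparison and 4 in the control comparison, and on the compared groups 5 and 2, all with positive changes. Their summed level was 231, 752, 1713 and 215 CPM in the ASAH− Etoh-Dox mice, 689, 240.4, 871, 355 and 646 CPM in the ASAH+ Etoh-Dox mice, and 135, 159.7, 175 and 192 CPM in the ASAH+ Etoh mice. The 4 mice without Dox were the 4 lowest. Of the mice with the most Asns counts of their groups, ASAH− replicate 3 had the highest sum of all 13, whereas ASAH+ Etoh-Dox replicate 2, with the most Asns of all 13, had the lowest sum of its group. The most abundant erythroid gene was Hbb-bs (beta globin), at 62.8 to 699 CPM.
Of 9 lymphocyte genes, 8 were tested, and 2 had a positive log2 fold change with an unadjusted p under 0.05 in the induction comparison and 3 in the control comparison. Their summed level was 12.1, 15.4, 22.1 and 20.8 CPM in the ASAH− Etoh-Dox mice, 17.05, 24.2, 12.1, 18.2 and 12.5 CPM in the ASAH+ Etoh-Dox mice, and 11.9, 13.3, 11.5 and 10.6 CPM in the ASAH+ Etoh mice. ASAH+ Etoh replicate 2 was above 3 of the mice with Dox, so these sums overlapped. Ptprc, the common leukocyte antigen, was the most abundant. ASAH+ Etoh-Dox replicate 2 and ASAH− replicate 3, with the most Asns counts of their groups, also had the highest sums of their groups. This was not particular to lymphocyte genes. The same mice had the highest sums of their groups for Kupffer cell and macrophage genes (679 and 971 CPM) and for stellate cell genes (301 and 374 CPM). Other lists differed. For endothelial genes, ASAH+ Etoh-Dox replicate 2 had 192 CPM and replicate 4 had 222 CPM. For cholangiocyte genes, ASAH− replicate 3 had 37.6 CPM and replicate 1 had 79.4 CPM. Of 6 acinar genes of the pancreas, a tissue known for high Asns, 1 was tested (Cela1, 5.36 to 11.3 CPM), and Pnlip had 0 counts in all mice. The part of other cells in the Asns counts was not tested.

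Other integrated stress response genes, 64 in number, were taken from a list of the kinases, eIF2 and eIF2B, phosphatase, transcription factors, and amino acid, tRNA and other target genes. Of these, 61 were tested and 0 were called by edgeR or limma-voom in any comparison, while DESeq2 called 1 (Xpot) on all 13 mice and 1 (Nupr1) on compared groups. Their median log2 fold changes were −0.026, −0.019 and −0.00019 in the genotype, induction and control comparisons, beside −0.0023, 0.013 and 0.016 over all genes. At an unadjusted p under 0.05 edgeR had 1 of 61 in the genotype comparison, 4 in the induction comparison and 2 in the control comparison, no larger shares than the 2.86%, 7.29% and 9.18% of all genes. These genes are given as a description.
In the genotype comparison that gene was Slc7a1, a transporter of cationic amino acids, with a log2 fold change of −0.58 (SE 0.26). It had few counts, 11 to 36 per mouse over the 13 mice. It measured 0.912, 1.01, 0.939, 0.441 and 0.563 CPM in ASAH+ and 1.05, 1.00, 1.47 and 1.14 CPM in ASAH− mice. The groups overlapped in a single pair of mice, and the ASAH+ mouse was lower in 19 of 20 pairs. The ASAH+ Etoh mice, without an expressed transgene, measured 0.751 to 1.02 CPM. The ASAH− mouse was above the ASAH+ Etoh mouse in 15 of 16 pairs.
With Dox against without Dox in ASAH+ mice, Nupr1 (a stress-induced transcriptional regulator) had 1.13 (SE 0.43) and Psph (the last enzyme of serine synthesis) 0.40 (SE 0.18) as log2 fold changes. Nupr1 measured 0.912, 1.19, 1.48, 1.16 and 1.26 CPM with Dox and 0.460, 0.488, 0.556 and 0.693 CPM without. These groups did not overlap, beside 2.58% of all genes tested without overlap in this comparison. The mice without Dox had only 10 to 12 counts of Nupr1 each. The ASAH− Etoh-Dox mice, also given Dox, measured 0.357 to 2.12 CPM and overlapped both. In the same comparison Eprs (glutamyl-prolyl-tRNA synthetase) had −0.17 (SE 0.075). Xpot, which exports tRNA from the nucleus, was below the ASAH+ Etoh mice in both groups given Dox.
Xpot measured 70.8, 66.2, 66.1 and 74.7 CPM in the ASAH− Etoh-Dox mice, 76.2, 71.1, 63.8, 78.5 and 73.1 CPM in the ASAH+ Etoh-Dox mice, and 79.1, 79.5, 84.5 and 98.98 CPM in the ASAH+ Etoh mice. All 9 mice with Dox were below all 4 without, with a log2 fold change of −0.30 (SE 0.091) in the control comparison and an adjusted p of 0.389 by the quasi-likelihood test of edgeR, Benjamini-Hochberg adjusted. Of all genes tested, 2.58% were without overlap in the induction comparison and 5.50% in the control comparison. Shmt2, which makes one-carbon units in mitochondria, had 0.31 (SE 0.14) there. The Benjamini-Hochberg adjusted p of DESeq2 was 0.0824 for Xpot there when fitted on all 13 mice and 0.128 on the compared groups, and 0.0884 for Nupr1 on the compared groups with and without Dox. On all 13 mice DESeq2 gave Nupr1 no adjusted p, so that run could not call it. By the quasi-likelihood test of edgeR the adjusted p of Nupr1 was 0.600.
The 2 genes with the smallest p in each other role were as follows, each in its own comparison with the smallest p and none with an unadjusted p under 0.05. The kinases Eif2ak2 (PKR) and Eif2ak4 (GCN2) had log2 fold changes of 0.18 (SE 0.17) and 0.13 (SE 0.15) in the control comparison. The eIF2B subunits Eif2b2 and Eif2b4 had −0.16 (SE 0.096) and −0.13 (SE 0.11) in the genotype comparison. Of the phosphatase, the catalytic subunit Ppp1cb had −0.15 (SE 0.075) in the control comparison and the constitutive targeting subunit Ppp1r15b −0.30 (SE 0.15) in the induction comparison. Ppp1cb was also without overlap in the induction comparison, where it was lower with Dox in 20 of 20 pairs of mice. Jdp2, a bZIP repressor, had 0.53 (SE 0.41) in the control comparison, Slc3a2, the heavy chain of amino acid exchangers, −0.13 (SE 0.11) in the genotype comparison, Eif4ebp1, a repressor of translation, 0.27 (SE 0.14) in the control comparison, and Herpud1, of protein degradation at the endoplasmic reticulum, 0.27 (SE 0.15) in the genotype comparison.

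The ATF6 and XBP1 arms of the unfolded protein response, which act on chaperones and degradation rather than through eIF2alpha, were examined beside the ATF4 branch. Of their 18 genes, 17 had positive log2 fold changes in the genotype comparison (median 0.36) and 17 in the induction comparison (median 0.36), against 7 in the control comparison (median −0.038). Their summed level was 4091, 2954, 2542 and 2655 CPM in the ASAH− Etoh-Dox mice, 3398, 2896, 4698, 4285 and 4040.0 CPM in the ASAH+ Etoh-Dox mice, and 3761, 3052, 3027 and 3071 CPM in the ASAH+ Etoh mice. The groups overlapped, with ASAH− replicate 1 above ASAH+ Etoh-Dox replicates 1, 2 and 5. The 3 highest mice, ASAH+ Etoh-Dox replicates 3 and 4 and ASAH− replicate 1, were also the 3 with the lowest log2 ratio of the clock genes Dbp and Arntl (given below), and the part of the clock in these sums was not tested. edgeR and limma-voom called 0, while DESeq2 called Derl3 in the genotype comparison. In the induction comparison DESeq2 called Pdia6, a protein disulfide isomerase, on all 13 mice, and Derl3 and Sdf2l1, a cofactor of the chaperone BiP, on the compared groups. At an unadjusted p under 0.05, edgeR had 8 of the 18 with positive changes in the genotype comparison, beside 2.86% of all genes. It had 4 with positive and 1 with negative changes in the induction comparison (7.29% of all genes), and 1 with a negative change in the control comparison (9.18%). Derl3, of the export of misfolded proteins, measured 0.319, 1.12, 0.0815 and 0.643 CPM in the ASAH− Etoh-Dox mice, 1.60, 0.648, 25.6, 13.6 and 16.3 CPM in the ASAH+ Etoh-Dox mice, and 1.01, 0.569, 0.742 and 0.116 CPM in the ASAH+ Etoh mice. ASAH+ Etoh-Dox replicates 3, 4 and 5 were above all other mice, while replicates 1 and 2 were near the rest. Its log2 fold change was 4.37 (SE 1.06) in the genotype comparison, with an adjusted p of 0.9996 by the quasi-likelihood test of edgeR, Benjamini-Hochberg adjusted, whereas DESeq2 called it on all 13 mice (adjusted p 0.0193) and on the compared groups (0.0954). Hsp90b1, the most abundant gene of these arms, had 0.22 (SE 0.14) there. The difference between these arms and the ATF4 branch was not tested.

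**Figure D3:**
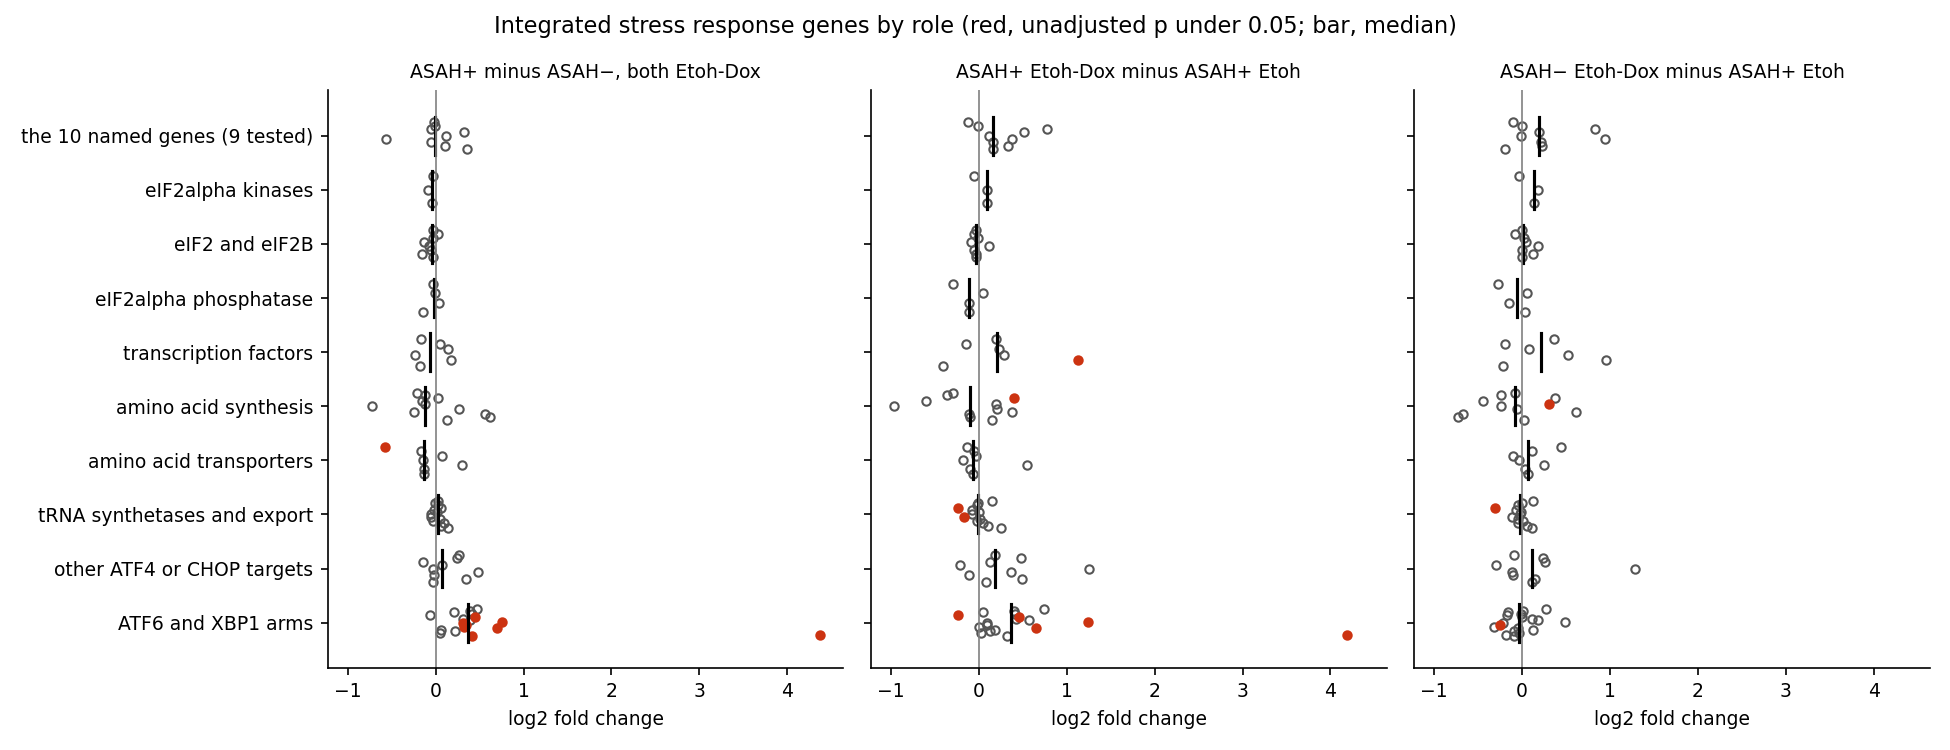
Log2 fold changes of the integrated stress response genes by role and of the ATF6 and XBP1 arms in the 3 comparisons (points, genes; bars, medians; red, unadjusted edgeR p under 0.05). The 18 genes of the ATF6 and XBP1 arms have medians of 0.36, 0.36 and −0.038, and the 9 tested genes of the ATF4 branch −0.0044, 0.17 and 0.19.

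Lists of other states and cell types had 0 genes called by edgeR or limma-voom in any comparison, while DESeq2 on all 13 mice called hepatocyte and erythroid genes, and on the compared groups also endothelial and macrophage genes. Counts at an unadjusted p under 0.05 stand beside 2.86%, 7.29% and 9.18% of all genes in the genotype, induction and control comparisons. At an unadjusted p under 0.05, edgeR had 1 of 13 tested immediate early genes, with a positive change in the induction comparison (Ier2, 0.76, SE 0.31), and the most abundant of them was Zfp36. Of 12 clock genes there were 0, with Tef the most abundant and Npas2 the smallest p (2.67, SE 1.47, in the control comparison). With 1 mouse left out, this fold change of Npas2 was 0.86 to 3.35.
Of 9 hepatocyte genes, 7 had negative changes in the genotype comparison (2 with an unadjusted p under 0.05), 7 in the induction comparison (3), and 3 in the control comparison (1). There Apoa1 had 0.54 (SE 0.13), and DESeq2 called 1, 3 and 2 genes in these comparisons on all 13 mice and 0, 1 and 2 on the compared groups. Of 10 Kupffer cell and macrophage genes, 0 had positive changes in the genotype comparison (median −0.29), 10 in the induction comparison (median 0.37) and 10 in the control comparison (median 0.60). An unadjusted p under 0.05 was reached by 8 of them in the control comparison and by 0 in the others. The 8 included C1qa (0.74, SE 0.25), which DESeq2 on the compared groups called, and the most abundant, Cd5l (0.64, SE 0.28).
Of 8 endothelial genes, 8 had negative changes in the genotype comparison (5 with an unadjusted p under 0.05), 7 in the induction comparison (6) and 5 in the control comparison (0). The most abundant, Fcgr2b, had −0.60 (SE 0.17) in the induction comparison, where DESeq2 on the compared groups called 3 (Fcgr2b, Oit3 and Clec4g). Of 8 stellate cell genes, 8 had negative changes in the genotype comparison (2 with an unadjusted p under 0.05), among them Reln (−0.37, SE 0.087). In the induction comparison 6 had positive changes (0), and in the control comparison 8 (4), with Dcn the most abundant. Of 5 tested cholangiocyte genes (the most abundant Spp1, the smallest p Epcam) and 2 tested neutrophil genes (S100a8 and S100a9), 0 had an unadjusted p under 0.05.

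Over the 13 mice pairs of genes of the branch differed in sign and size of correlation. Of the 36 pairs among the 9 tested genes, 25 had a positive and 11 a negative Pearson r of log2 CPM, from −0.477 (Chac1 and Gdf15) to 0.799, with a median of 0.285. Of the 8 pairs of Atf4, 6 were positive, with r of 0.409 for Sesn2, 0.405 for Ppp1r15a, 0.356 for Gdf15, 0.323 for Ddit3, 0.264 for Eif2ak3 and 0.146 for Chac1, and 2 negative, with −0.133 for Trib3 and −0.0448 for Fgf21. With the 9 pairs of Asns, 45 relations were computed and p-values were adjusted over them by the Benjamini-Hochberg method.
Eif2ak3 and Gdf15 had r = 0.799 (permutation p = 0.00137, adjusted 0.0616) and Spearman rho = 0.852 (permutation p = 0.00046, adjusted 0.0207). Without the 2 mice farthest from the median of Eif2ak3, r was 0.848. Ddit3 and Gdf15 had r = 0.748 (permutation p = 0.00334, adjusted 0.0751) and rho = 0.714 (permutation p = 0.00815, adjusted 0.183), and r = 0.706 without the 2 farthest mice. The next were Ppp1r15a and Gdf15, with r = 0.661 (permutation p = 0.0141, adjusted 0.177), rho = 0.621 (permutation p = 0.0263, adjusted 0.219) and r = 0.637 without the 2 farthest mice. The most negative was Atf4 and Asns, with r = −0.571 (permutation p = 0.0412, adjusted 0.265), rho = −0.626 (permutation p = 0.0254, adjusted 0.219) and r = −0.600 without the 2 farthest mice.
On deviations from the group means, Eif2ak3 and Gdf15 had r = 0.826 and Ddit3 and Gdf15 r = 0.798, both with an adjusted permutation p of 0.0254. Deviations were permuted freely over the 13 mice, without allowance for the 3 fitted means, so this p can be too small. Mice were left out for the correlations of log2 CPM and not for the deviations. Both calls on log2 CPM depended on single mice. Leaving out 1 mouse, r of Eif2ak3 and Gdf15 was 0.734 to 0.890 with adjusted permutation p of 0.00405 to 0.210, under 0.1 in 6 of 13 fits. That p was 0.106, 0.108 and 0.210 without ASAH− replicates 1, 3 and 4, 0.116 and 0.106 without ASAH+ Etoh-Dox replicates 1 and 5, and 0.132 and 0.104 without ASAH+ Etoh replicates 2 and 3. For Ddit3 and Gdf15, r was 0.649 to 0.790, under 0.1 in 4 of 13 fits. It was lost without these same mice, at adjusted permutation p of 0.106, 0.114, 0.210, 0.116, 0.106, 0.132 and 0.104 in the same order, and without ASAH+ Etoh-Dox replicates 2 (0.166) and 4 (0.158).

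**Figure D4:**
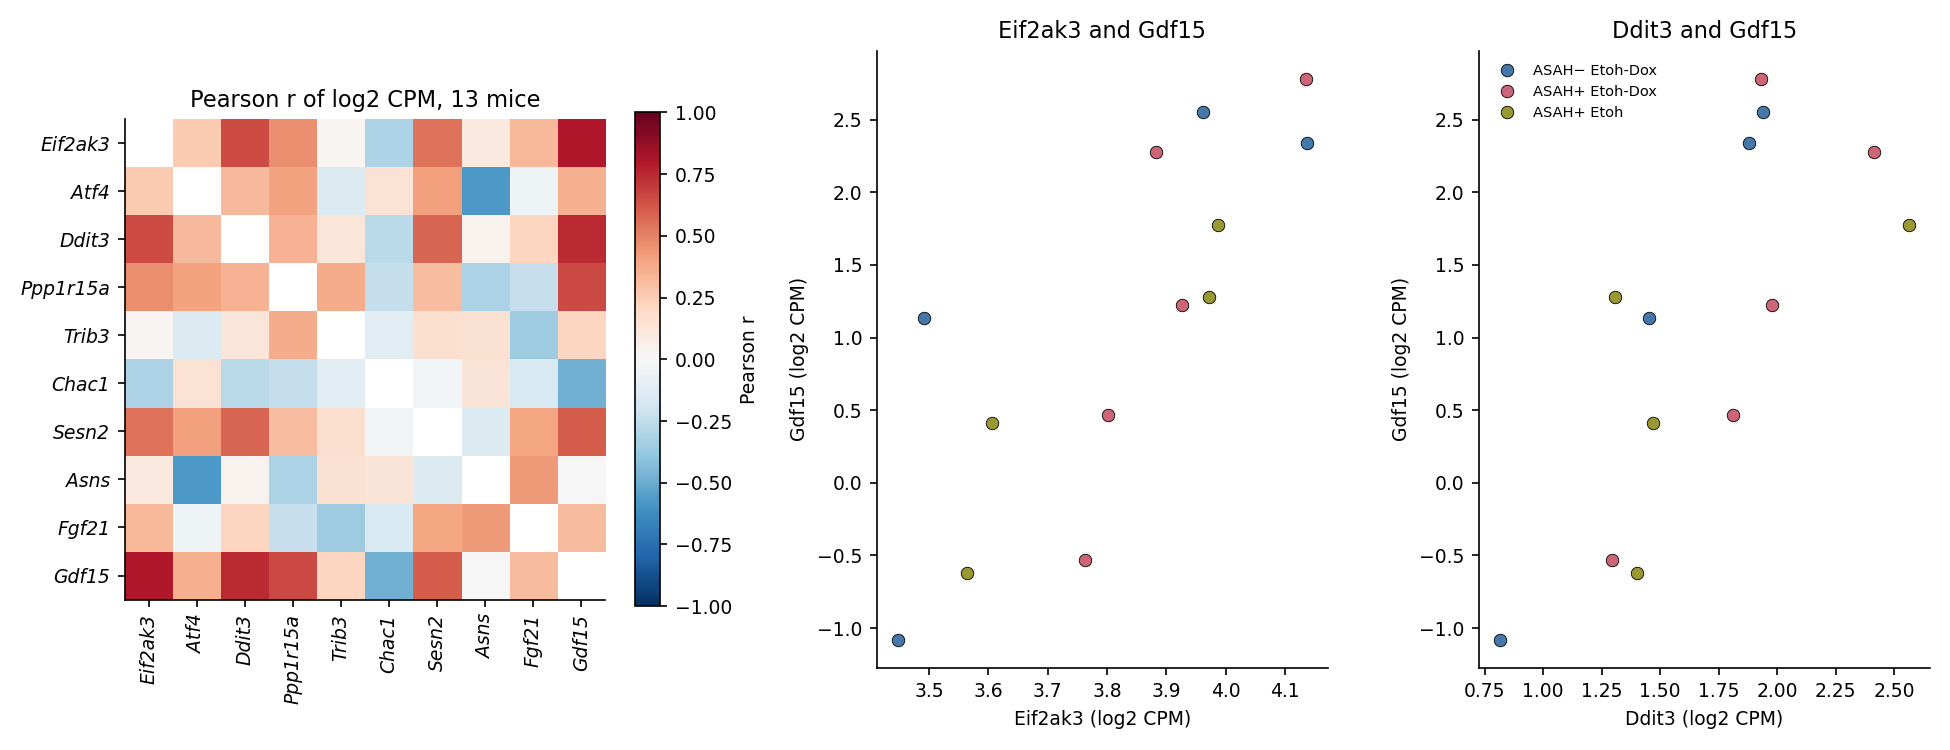
Pearson r of log2 CPM for the 45 pairs of the 10 genes over 13 mice (colour), and log2 CPM of Gdf15 against Eif2ak3 and against Ddit3, with a point per mouse. Mice of all 3 groups lie along both plots, with r = 0.799 and 0.748.

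The mice also differed in the phase of the clock, as read from the log2 ratio of Dbp to Arntl, which peak at opposite times of day. It was −0.96, 6.49, 1.81 and 6.11 in the ASAH− Etoh-Dox mice, 6.64, 6.78, −1.64, 0.15 and 2.70 in the ASAH+ Etoh-Dox mice, and 4.45, 6.06, 5.05 and 1.60 in the ASAH+ Etoh mice. The groups overlapped, and the ASAH+ Etoh mouse with the lowest ratio, replicate 4, was the one with the most Ddit3. Over 13 mice and 10 relations, the ratio had r = −0.636 with Ddit3 (permutation p = 0.0197, adjusted 0.197), rho = −0.582 (permutation p = 0.0396, adjusted 0.219) and r = −0.777 without the 2 farthest mice. The smallest adjusted p of the 10 was this 0.197.
With the ratio's part removed from each gene, r was 0.743 for Eif2ak3 and Gdf15 (adjusted permutation p = 0.0803) and 0.669 for Ddit3 and Gdf15 (0.188), which ended that call. Ppp1r15a and Gdf15 then had r = 0.793 (adjusted permutation p = 0.0504). These permutations made no allowance for the fitted ratio, so their p can be too small. The labels give no hour of collection.

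The 2 protein-coding genes most like each tested gene over the 13 mice, by Pearson r of log2 CPM among 11460 genes of at least 1 CPM on average, were not other genes of the branch. For Eif2ak3 they were Zfp384 (r = 0.879) and Polr2a (0.857), and for Atf4 Crkl (0.896) and Ppp1r3g (0.844). For Ddit3 they were Nlgn2 (0.944) and Trrap (0.932), for Ppp1r15a Ndufv1 (0.895) and Atp13a1 (0.890), and for Trib3 Agfg2 (0.927) and Cxxc5 (0.907). For Chac1 they were Rpa3 (0.915) and Tob2 (0.906), for Sesn2 Dnm2 (0.900) and Tsen54 (0.880), for Fgf21 Sept4 (0.869) and Lama1 (0.849), and for Gdf15 Cfl1 (0.945) and Tcirg1 (0.936). These are the highest of 11460 values for each gene and are given as a description.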

How the data were processed

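The authors mapped single-end stranded reads with Salmon against GENCODE M19 (GRCm38.p6) and summed transcripts to genes in tximport. The authors deposited estimated counts, 100% of them whole numbers, without scaling. The average transcript lengths of tximport were not used. Of 53392 gene identifiers, 53355 matched GENCODE M21, and 28557 had any count.

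Groups came from the descriptions and induction labels. Counts went into edgeR 4.0.16 under R 4.3.3. Its filterByExpr kept 14317 genes, which were normalized by TMM and fitted by the robust quasi-likelihood method with 3 group means over 13 mice. P-values were adjusted by Benjamini-Hochberg over all genes tested, with 0.1 as the threshold. Intervals of fold changes are 95% t-based intervals from the fit's degrees of freedom. Ratios of Asns counts have exact intervals conditional on the sum of the pooled counts, without the spread between mice. Log2 CPM used a prior count of 2. Exact permutations were two-sided, and their p-values were not adjusted over the genes. Correlations used 100000 permutations (SciPy 1.17.1, Python 3.11.15), with figures from matplotlib 3.10.9. The tests were also run on simulated data, from which no values are given here.

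The genes and lists were chosen with earlier results of these data known: the 10 genes; the other integrated stress response genes (of each role, the 2 with the smallest p, and any called); immediate early, clock, and ATF6 and XBP1 genes; and markers of hepatocytes, macrophages, endothelium, stellate cells, cholangiocytes, lymphocytes, neutrophils, erythroid cells and pancreas (of each, the most abundant gene and the smallest p). The 2 nearest genes by r were named for each. The correlations with the clock ratio, and Pdia6, were added after the values were seen.

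Alternatives were DESeq2 1.42.0, limma-voom (limma 3.58.1), DESeq2's size factors, fits of the compared groups only, no filter, 10 counts in every mouse, Asah1 out of the totals, a replicate block, the Dbp to Arntl ratio as covariate, a prior count of 0.5, a threshold of 0.05, and each mouse left out. Results of a list of fasting genes are left out. Protein, lipid and metabolic measurements have no values in the table.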

Additional observations from a re-analysis of the deposited data

Results flagged for a closer look

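In the 3 groups of 4 or 5 mice, a single mouse stood far from the others of its group for 2 of 33 combinations of gene and group examined. Such a gap is reached by chance in about 1 of 20 groups.

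Ddit3 measured 5.84 CPM in ASAH+ Etoh replicate 4, where the nearest mouse of that group had 2.69 CPM, so that the gap was 0.914 of the group's whole range. Asns measured 0.775 CPM (19 counts) in ASAH− Etoh-Dox replicate 3, where the nearest mouse had 0.231 CPM (6 counts), a gap of 0.852 of the range.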

How the results depend on the processing

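In every alternative run, 0 of the genes of the branch were called in any of the 3 comparisons. DESeq2 on all 13 mice gave an adjusted p to 15808, 1982 and 8625 genes in the genotype, induction and control comparisons. Genes without one could not be called by it. Counts of all genes called moved more. Against 2 in each comparison, DESeq2 on all 13 mice called 12, 98 and 149 genes in the genotype, induction and control comparisons, and DESeq2 on the compared groups 11, 114 and 168. edgeR on the compared groups called 1, 3 and 0. No filter gave 4 in the induction comparison. In the control comparison, limma-voom called 1, the Dbp to Arntl covariate 1, and an adjusted p under 0.05 gave 0. The cause was not tested.

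Leaving out each mouse gave 1 to 2 in the genotype comparison (1 without ASAH− replicate 1, 3 or 4), 2 to 8 in the induction comparison (8 without ASAH+ Etoh replicate 2) and 0 to 2 in the control comparison (0 without ASAH− replicate 1, 2 or 3 or ASAH+ Etoh replicate 1, 2 or 4, and 1 without ASAH+ Etoh replicate 3). Pairs of genes with an adjusted permutation p under 0.1, 2 over all mice, were 0 to 3. Leaving out mice for the correlations, and their residuals on the clock ratio, were alternatives chosen after seeing the data.

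Of 270 fold changes of the 9 genes under other settings, 14 changed sign, 12 of them of Ppp1r15a, which was near 0 throughout. In the genotype comparison Ppp1r15a had 0.00160 (DESeq2 on all 13 mice), 0.00421 (edgeR on the compared groups), 0.00837 (no filter) and 0.00044 (Asah1 out of the totals). In the induction comparison it had 0.00203 (no filter) and 0.00654 (covariate). In the control comparison it had −0.0152 and −0.0142 (DESeq2 on all mice and on the compared groups), −0.0125 (DESeq2's size factors), −0.00749 (edgeR on the compared groups), −0.00634 (no filter) and −0.0092 (Asah1 out of the totals). Gdf15 in the genotype comparison had 0.15 with limma-voom and 0.12 with the covariate. The cause was not tested.

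With each mouse left out, 37 of 234 signs of the 9 genes changed. The ranges were, in the genotype comparison, −0.14 to 0.042 for Atf4, −0.089 to 0.41 for Chac1, −0.57 to 0.37 for Gdf15, −0.11 to 0.10 for Ppp1r15a and −0.17 to 0.11 for Sesn2. In the induction comparison they were −0.12 to 0.090 for Ppp1r15a. In the control comparison they were −0.085 to 0.46 for Chac1, −0.34 to 0.17 for Ddit3, −0.16 to 0.093 for Eif2ak3, −0.10 to 0.056 for Ppp1r15a and −0.015 to 0.37 for Trib3. Of 372 values of other named genes, 2 changed sign, both of Zfp36 in the induction comparison (−0.12 to 0.32). The ratio of Asns counts, left out mouse by mouse after seeing the data, was 0.841 to 2.26 in the genotype comparison, 3.26 to 5.76 in the induction comparison and 2.08 to 4.71 in the control comparison.

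Replicate numbers belong to different mice, and the 12 pairs of mice with the same number had a mean r of −0.046, against 0.013 for other pairs. With the number as a replicate block, edgeR called 1 gene in the genotype comparison and 0 in the control comparison, and 0 genes of the branch. Depth limited Asns most: of 10 genes it alone had under 4 counts in any mouse.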
